A study of Mus musculus with 18 samples.

Results

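The MHC class I and peptide loading genes described here are 10 genes of the 16474 in the table, taken as the rows whose symbol is H2-K1, H2-D1, H2-T23, H2-M3, B2m, Tap1, Tap2, Tapbp, Erap1 or Nlrc5. The rule used names and no measured value, but the names were chosen with earlier results of these data known. All 10 passed the filter on low values, as did 15627 genes in all. MHC class I molecules carry peptides from inside a cell to its surface, where CD8 T cells and natural killer cells read them. A heavy chain pairs with the light chain beta-2 microglobulin in the endoplasmic reticulum, the TAP transporter brings peptides in from the cytosol, tapasin holds the empty molecule beside TAP, and the ERAP1 peptidase trims peptides to length. Interferon gamma is a known inducer of the pathway, and NLRC5 is the transcriptional coactivator that works at class I promoters. Macrophages carry class I constitutively and raise it when activated.

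RNA was sequenced from macrophages grown out of the bone marrow of C57BL/6 mice aged 8 weeks. The mice were p110g-/- or wild type (WT), and p110gamma is the catalytic subunit of phosphoinositide 3-kinase gamma, encoded by Pik3cg. Marrow was cultured for 6 days with 50 ng/ml M-CSF, the macrophage growth factor. For each genotype there were 3 libraries in 20 ng/ml M-CSF alone (24 h), 3 with interferon gamma and 100 ng/ml LPS added (IFNg/LPS, 24 h) and 3 with 20 ng/ml IL-4 added (48 h), so that all 18 libraries, the M-CSF controls included, came from cells kept in M-CSF. IL-4 differs from M-CSF in time as well as in stimulus, and the effects of time and stimulus cannot be told apart. The labels do not say whether libraries 1 to 3 of a group came from separate mice or cultures, so p-values reflect only how much these libraries vary, which may be technical variation.

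The libraries held 40.1 to 69.6 M (1e6) reads, so sampling noise was small for the 10 genes, whose lowest value in any library was 482.6. Of 10 macrophage markers 9 were in the table, with a summed signal of 472595 to 1066318. The defining markers of B cells (4 of 6 in the table) summed to at most 617, those of T and NK cells (5 of 8) to at most 274 and those of mast cells and basophils (6 of 6) to at most 715. Neutrophil markers (9 of 9) summed to 1045 to 32455 and were lowest in IFNg/LPS. Fibroblast and stroma markers (7 of 7) summed to 232 to 3686. Pik3cg was 1966 ± 79.2 in p110g-/- and 5210 ± 188 in WT libraries in M-CSF, and 1001 ± 71.2 in p110g-/- and 3101 ± 166 in WT libraries in IL-4 (SD, n = 3 each). In IFNg/LPS it was 2380 ± 1178 in p110g-/- and 2824 ± 654 in WT libraries and the genotypes overlapped (limma log2 difference -0.34, adjusted p = 0.37). The overlap came from the library labelled p110g-/- IFNg/LPS number 1, with 3691.4, against 1410.5 and 2036.7 in the other p110g-/- libraries and 3559.5, 2309.0 and 2604.2 in WT libraries. By its Pik3cg RNA this p110g-/- library goes against its label, so the fitted comparisons of the 10 genes that use it are also given without it. Library number 1 was the highest of the WT IFNg/LPS group as well, and the cause was not tested.

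Of the 10 genes, 8 have an upstream window in RefSeq (GRCm38.p6) and are shown or described by the 250 bases before the transcript start; Tap2 and Nlrc5 are named only. The windows of the heavy chains, of B2m and of Tap1 are printed because they show which elements the members share and which they do not. The letters searched, on both strands, were GAAANNGAAA (interferon response element), GAANNGAAA (a form 1 base shorter, searched after the sequences had been seen), TTCNNNGAA (GAS, the gamma interferon activation site), the NF-kB consensus, TGACG (the core of the X2 box) and CCAAT (Y box). X2 and Y are parts of the enhanceosome to which NLRC5 is recruited. The sequences run 5′ to 3′ on the strand of the gene, and capitals mark the matches.
H2-K1 (chr17:34000334-34000583, minus strand): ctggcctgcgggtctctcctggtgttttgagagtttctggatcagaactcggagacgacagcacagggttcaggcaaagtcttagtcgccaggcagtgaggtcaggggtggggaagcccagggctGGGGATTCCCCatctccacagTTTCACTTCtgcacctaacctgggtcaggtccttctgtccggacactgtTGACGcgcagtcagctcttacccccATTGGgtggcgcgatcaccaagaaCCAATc
H2-D1 (chr17:35262844-35263093, plus strand): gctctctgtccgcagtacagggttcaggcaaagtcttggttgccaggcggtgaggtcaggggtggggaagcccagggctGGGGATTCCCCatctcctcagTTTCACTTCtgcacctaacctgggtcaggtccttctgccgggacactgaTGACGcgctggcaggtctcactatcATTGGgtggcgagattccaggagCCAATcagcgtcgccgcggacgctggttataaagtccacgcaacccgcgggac
H2-T23 (chr17:36032702-36032951, minus strand): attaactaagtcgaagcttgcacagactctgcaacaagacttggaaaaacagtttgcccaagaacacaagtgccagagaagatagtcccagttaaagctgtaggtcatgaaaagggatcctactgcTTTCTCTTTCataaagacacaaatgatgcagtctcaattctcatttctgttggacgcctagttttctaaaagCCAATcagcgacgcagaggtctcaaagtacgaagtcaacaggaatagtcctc
H2-M3 (chr17:37269984-37270233, plus strand): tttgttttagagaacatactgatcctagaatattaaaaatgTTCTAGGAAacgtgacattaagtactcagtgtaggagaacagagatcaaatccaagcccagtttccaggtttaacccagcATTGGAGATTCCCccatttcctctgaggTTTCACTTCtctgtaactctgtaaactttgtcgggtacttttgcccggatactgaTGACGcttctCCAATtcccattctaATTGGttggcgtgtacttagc
B2m (chr2:122147437-122147686, plus strand): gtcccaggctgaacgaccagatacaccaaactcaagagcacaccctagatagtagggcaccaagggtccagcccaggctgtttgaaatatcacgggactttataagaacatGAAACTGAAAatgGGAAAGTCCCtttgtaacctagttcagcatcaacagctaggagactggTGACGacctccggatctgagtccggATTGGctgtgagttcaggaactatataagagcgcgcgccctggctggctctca
Tap1 (chr17:34187306-34187555, plus strand): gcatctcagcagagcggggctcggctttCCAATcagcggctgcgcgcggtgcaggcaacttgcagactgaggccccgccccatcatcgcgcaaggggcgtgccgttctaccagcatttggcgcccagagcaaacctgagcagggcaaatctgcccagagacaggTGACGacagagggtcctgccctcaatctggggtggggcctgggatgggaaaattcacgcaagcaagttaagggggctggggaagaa

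H2-K1, H2-D1, H2-M3 and B2m, 4 of the 8, each held TGACG followed by ATTGG, the reverse complement of CCAAT, with 20 bases between them. With any gap of 10 to 30 bases the pair was in 0.642% of the 32851 RefSeq windows of this length, and with a gap of 20 bases in 0.0913%. The gap of 20 was read from these same members, so the second share is no independent measure of rarity. The NF-kB consensus was in the same 4 genes and in 7.25% of all windows, and in H2-M3 its match overlapped a CCAAT match. The shorter interferon element was in H2-K1, H2-D1 and H2-M3 (6.31% of windows), GAAANNGAAA in H2-T23 and B2m (2.98%), and TTCNNNGAA in H2-M3 (7.02%). TGACG alone was in 5 of the 8 genes (17.8% of windows) and CCAAT in 7 (33.8%). Tap1 held TGACG and CCAAT far apart, Tapbp (the gene of tapasin) held CCAAT only, and Erap1 held none of these letters in this window. Best aligned, 166 of 190 bases of the windows of H2-K1 and H2-D1 were identical (87.4%), against 31.2% to 45.6% for the other pairs among the 4 heavy chains. H2-K1 has a second RefSeq start 14 bases further upstream, whose window overlaps the one printed. A match is a run of letters and no measured binding.

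**Figure D1:**
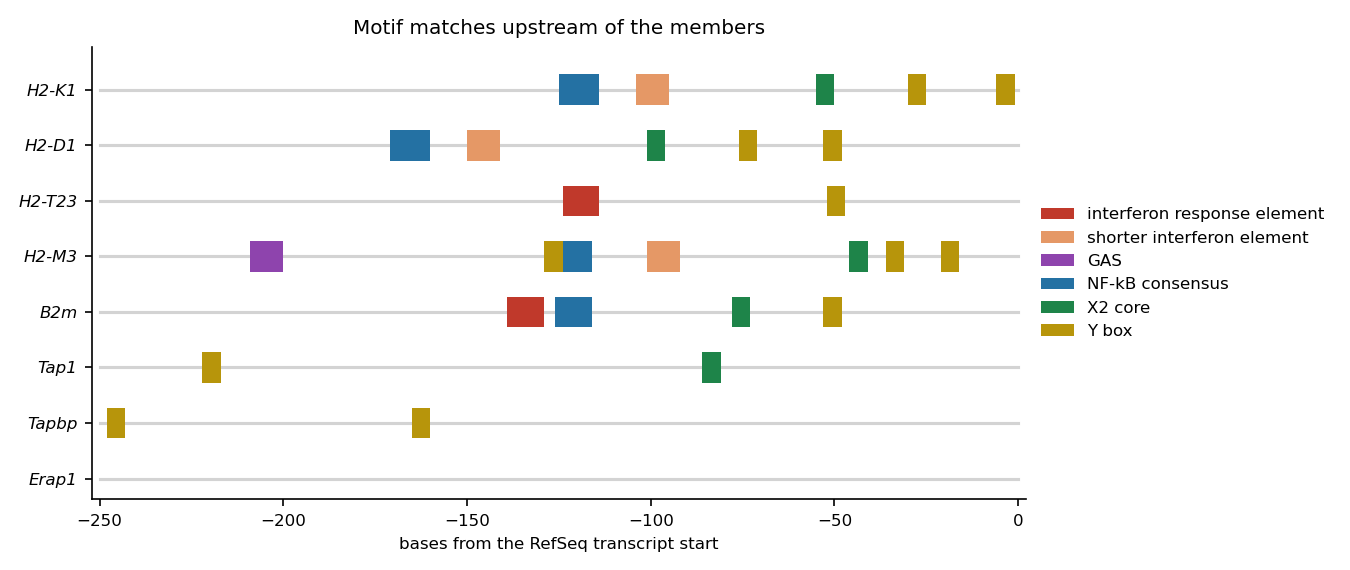
Positions of the motif matches in the 250 bases upstream of the RefSeq transcript start of 8 members; the horizontal axis is the distance from the start in bases and each coloured box is a match on either strand. To the right of the X2 core (TGACG) a Y box follows after 20 bases in H2-K1, H2-D1, H2-M3 and B2m. In H2-M3 another Y box lies between the X2 core and that Y box. A further Y box of H2-M3 covers the start of its NF-kB box, and Erap1 has no box.

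Levels between genes are compared per kilobase of exon, as mean signal per kb ± SD over 3 libraries. In M-CSF, the light chain B2m was the most abundant of the 10, at 133911 ± 12087 in p110g-/- and 140605 ± 27200 in WT libraries. The classical heavy chains followed, H2-D1 at 51794 ± 5071 in p110g-/- and 51688 ± 5719 in WT, and H2-K1 at 25378 ± 2425 in p110g-/- and 28003 ± 5302 in WT. H2-T23, the nonclassical Qa-1 heavy chain that natural killer cells survey, was at 9986 ± 601 in p110g-/- and 8740 ± 987 in WT, and Tapbp at 5870 ± 318 in p110g-/- and 5496 ± 594 in WT. Tap1 was at 1037 ± 136 in p110g-/- and 1277 ± 385 in WT. H2-M3, which presents formylated bacterial peptides, was at 1077 ± 146 in p110g-/- and 1201 ± 160 in WT, and these neighbours did not differ beyond their spread. Tap2 was at 847 ± 66.4 in p110g-/- and 859 ± 78.1 in WT, and Erap1 at 757 ± 22.4 in p110g-/- and 674 ± 43.7 in WT. Nlrc5 was last at 102 ± 20.7 in p110g-/- and 192 ± 53.9 in WT. In WT IFNg/LPS the order was B2m, H2-K1, H2-D1, H2-T23, Tapbp, Tap1, Tap2, H2-M3, Nlrc5 and Erap1, and no neighbours in it overlapped within 1 SD. B2m then ranked 3 of the 13954 tested genes with an exon length (89.3% of those tested) in both genotypes. H2-K1 ranked 13 in both, against 76 in p110g-/- and 71 in WT M-CSF libraries.

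All 10 genes rose with IFNg/LPS in both genotypes (limma, Benjamini-Hochberg adjusted p at most 0.05 over all tested genes). Of all tested genes 36.2% rose in p110g-/- and 36.3% in WT. The median log2 fold change of the 10 was 2.51 in p110g-/- and 2.38 in WT, against -0.01 over all tested genes in each, and 3 of the 10 lay above the 95th percentile of all genes. The transporter subunits and Nlrc5 had the largest increases, and H2-D1 and Erap1 the smallest. In bulk RNA, more RNA per cell and more cells of a kind cannot be told apart. The summed dendritic cell markers (8 of 8 in the table) moved with the stimulus, at 7991 to 20789 in p110g-/- and 1658 to 5016 in WT IFNg/LPS, against 363 to 672 in p110g-/- and 317 to 364 in WT M-CSF. Most of the IFNg/LPS sum was Ccr7, which activated cells also carry. The sum of the other 7 also rose, without overlap in either genotype. It was 800.1 to 806.0 in p110g-/- and 679.1 to 1090.9 in WT IFNg/LPS libraries. In M-CSF it was 271.9 to 369.0 in p110g-/- and 209.5 to 228.5 in WT libraries. Of these 7, Cd209a went the other way and was at 0 in all 6 IFNg/LPS libraries. The part of dendritic cells in the result was not tested.

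**Figure D2:**
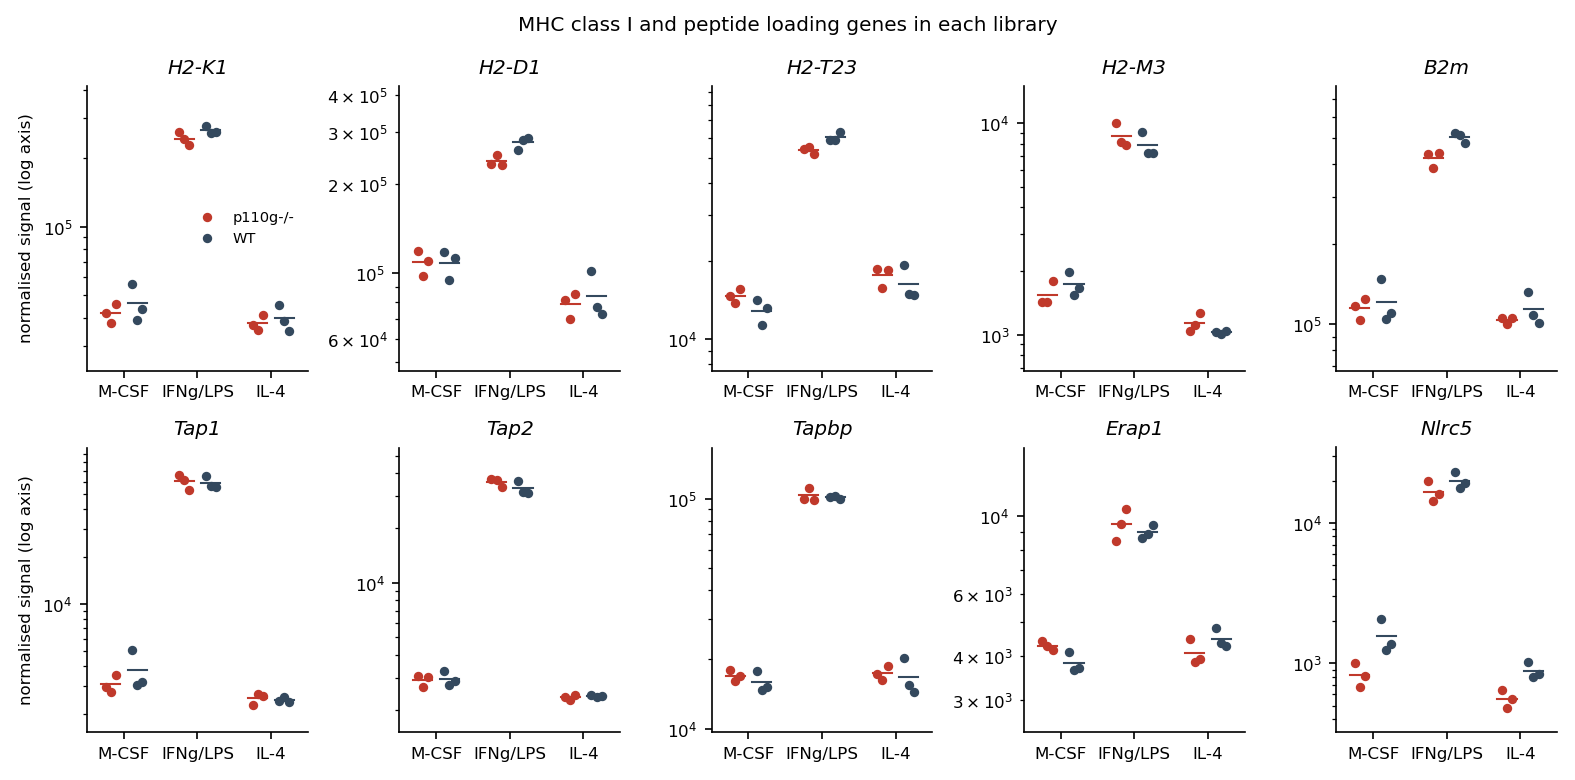
Normalised signal of each of the 10 genes in each of the 18 libraries, on log axes; points are libraries, horizontal bars are means of 3, and p110g-/- (red) stands left of WT (dark) within each stimulus. In every panel the 6 IFNg/LPS libraries lie above the 12 others, and Nlrc5 is the gene whose p110g-/- libraries lie below all WT libraries in both M-CSF and IL-4.

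Among the heavy chains, H2-K1 had signals of 261073.6, 242475.1 and 229193.9 in p110g-/- IFNg/LPS libraries, against 41931.4, 38022.2 and 46049.5 in p110g-/- M-CSF libraries. WT libraries had 277203.2, 259022.1 and 261415.1 in IFNg/LPS, against 56131.3, 39179.5 and 43724.6 in M-CSF. The groups did not overlap in either genotype, and the log2 fold change was 2.54 in both (SE 0.13, 5.82-fold in p110g-/- and 5.8-fold in WT). H2-D1, the other classical heavy chain, had 234518.4, 250598.1 and 232599.7 in p110g-/- IFNg/LPS, against 119095.0, 97825.9 and 109694.7 in M-CSF. WT libraries had 261762.1, 282446.7 and 286167.0 in IFNg/LPS, against 118386.0, 95211.5 and 112344.2 in M-CSF. Its increase was 1.14 in p110g-/- and 1.35 in WT (SE 0.13), the smallest of the heavy chains. H2-T23 rose by 1.87 in p110g-/- and 2.23 in WT (SE 0.11) and H2-M3 by 2.48 in p110g-/- and 2.18 in WT (SE 0.12), both without overlap. Shared sequence limits these values. Of the 50-base stretches of the longest transcript, 8.8% of H2-K1, 14.3% of H2-D1 and 29.8% of H2-T23 occur in other genes, mainly class I relatives, and 0.6% of H2-M3. How reads with several matches were counted is not given in the sources used here.

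B2m had 436103.5, 386776.0 and 440223.4 in p110g-/- IFNg/LPS libraries, against 117545.4, 103784.1 and 124159.6 in M-CSF. The WT signals were 523549.4, 513781.9 and 478981.8 in IFNg/LPS, against 147683.4, 104380.8 and 110696.7 in M-CSF. The light chain thus rose 3.66-fold in p110g-/- (log2 1.87, SE 0.13) and 4.23-fold in WT (log2 2.08, SE 0.13), and none of its stretches occurs elsewhere.

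Of the transporter and its partner, Tap1 had 65939.8, 61854.4 and 53320.6 in p110g-/- IFNg/LPS, against 2950.8, 2727.7 and 3507.9 in M-CSF, a 19.7-fold increase (log2 4.30, SE 0.16). The WT signals were 65475.6, 56604.4 and 55345.5 in IFNg/LPS, against 5081.6, 3043.9 and 3191.2 in M-CSF, a 16.1-fold increase (log2 4.01, SE 0.16). The first WT M-CSF library stood above the other M-CSF libraries. Tap2 rose 12.2-fold in p110g-/- (log2 3.61, SE 0.08) and 11.2-fold in WT (log2 3.49, SE 0.08), with 33513.4 to 37001.5 in p110g-/- IFNg/LPS against 2655.6 to 3078.4 in M-CSF, and 31269.6 to 36248.5 in WT IFNg/LPS against 2732.0 to 3254.1 in M-CSF. Tapbp rose by 2.60 in p110g-/- and 2.68 in WT on the log2 scale (SE 0.11). The trimming peptidase Erap1 rose least of the loading genes, 2.21-fold in p110g-/- (log2 1.14, SE 0.08) and 2.36-fold in WT (log2 1.24, SE 0.08). It had 8477.3 to 10418.2 in p110g-/- IFNg/LPS against 4155.0 to 4406.0 in M-CSF, and 8638.1 to 9391.9 in WT IFNg/LPS against 3631.9 to 4086.8 in M-CSF. Genes on the opposite strand share 50-base stretches with these: Psmb9 with 5.6% of Tap1, Gm15821 with 9.9% of Tap2, Gm19412 with 19.0% of Tapbp and Cast with 14.0% of Erap1. Use of strand in the counting is not given in the sources used here.

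The regulator Nlrc5 had 19824.8, 14266.0 and 16049.7 in p110g-/- IFNg/LPS libraries, against 1009.3, 674.3 and 811.4 in M-CSF. In WT it had 22940.8, 17845.7 and 19131.3 in IFNg/LPS, against 2061.8, 1247.6 and 1375.8 in M-CSF. The increase was 20.2-fold in p110g-/- (log2 4.33, SE 0.19) and 13-fold in WT (log2 3.70, SE 0.19). Adjusted p over the 10 genes and both genotypes was at most 7e-07. Without the library labelled p110g-/- IFNg/LPS number 1, all 10 still rose in p110g-/-, by 1.15 (H2-D1) to 4.24 (Tap1) on the log2 scale, with Nlrc5 at 4.20.

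**Figure D3:**
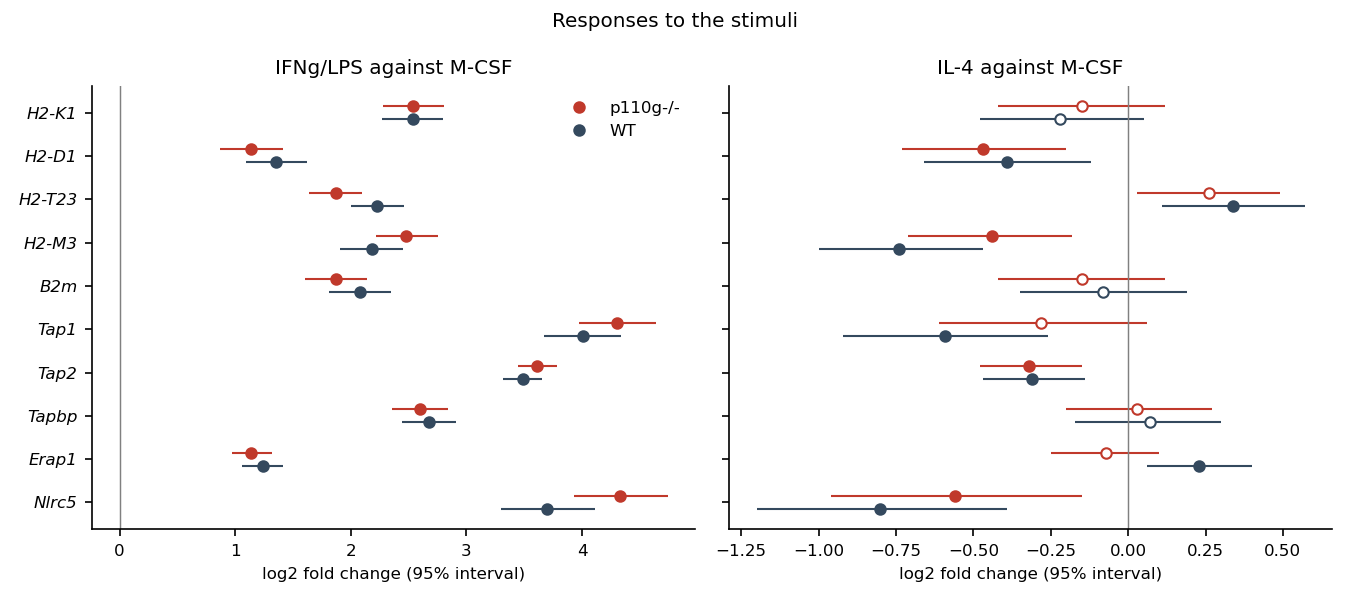
Log2 fold change against M-CSF for each of the 10 genes, with 95% intervals from limma, for IFNg/LPS (left) and IL-4 (right); red is p110g-/- and dark is WT, and filled points passed an adjusted p of 0.05. All 20 values for IFNg/LPS lie between 1.14 and 4.33, whereas those for IL-4 lie between -0.80 and 0.34 on both sides of 0.

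The responses to IL-4 were small and mixed. In p110g-/- libraries 4 of the 10 genes fell (H2-D1, H2-M3, Tap2 and Nlrc5) and 0 rose, where 21.2% of all tested genes fell and 22.7% rose. DESeq2 also had 1 that rose, H2-T23, and edgeR had 0; at an unadjusted p under 0.05 in limma, 5 of the 10 moved in all. In WT libraries 5 fell (H2-D1, H2-M3, Tap1, Tap2 and Nlrc5) and 2 rose (H2-T23 and Erap1), where 21.1% of all tested genes fell and 22.9% rose. The median log2 fold change was -0.21 in p110g-/- and -0.26 in WT. With both directions together, the share of the 10 that moved was not above that of all genes in p110g-/-, but was in WT. By direction, the share that fell was above that of all genes in both genotypes, and the share that rose was not. Of the 10 genes 0 lay above the 95th percentile of all genes. That percentile counts increases only, and the lower end of all genes was not counted.

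Nlrc5 had the largest IL-4 response of the 10 in both genotypes. H2-M3 came next in WT, and H2-D1 in p110g-/-. Nlrc5 had 641.4, 482.6 and 558.1 in p110g-/- IL-4 libraries, against 1009.3, 674.3 and 811.4 in M-CSF (log2 -0.56, SE 0.19, limma adjusted p = 0.027). In WT it had 1017.8, 797.1 and 832.7 in IL-4, against 2061.8, 1247.6 and 1375.8 in M-CSF (log2 -0.80, SE 0.19, adjusted p = 0.0034). IL-4 and M-CSF libraries did not overlap in either genotype. In p110g-/- the Nlrc5 call was lost without M-CSF library 1 (adjusted p = 0.13) or 3 (0.057) or IL-4 library 2 (0.11) or 3 (0.062).

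H2-M3 had 1037.4, 1110.5 and 1264.3 in p110g-/- IL-4, against 1420.8, 1433.8 and 1790.1 in M-CSF (log2 -0.44, SE 0.12, limma adjusted p = 0.0096). The WT signals were 1035.4, 1011.9 and 1041.2, against 1984.3, 1539.4 and 1659.4 in M-CSF (log2 -0.74, SE 0.12, adjusted p = 0.00024). Again the groups did not overlap. Tap2 fell by 0.32 in p110g-/- (SE 0.08, adjusted p = 0.0039) and by 0.31 in WT (SE 0.08, adjusted p = 0.0049). Tap1 fell by 0.59 in WT (adjusted p = 0.0066) and was at -0.28 in p110g-/- (adjusted p = 0.17). H2-D1 fell by 0.47 in p110g-/- (adjusted p = 0.0074) and by 0.39 in WT (adjusted p = 0.022), where IL-4 and M-CSF libraries overlapped. Without p110g-/- M-CSF library 3 the count of 4 became 2, because H2-M3 (adjusted p = 0.057) and Nlrc5 were lost.

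H2-T23 went the other way from H2-D1. It had 18694.9, 15715.3 and 18540.8 in p110g-/- IL-4, against 14697.5, 13815.7 and 15586.1 in M-CSF (log2 0.26, SE 0.11, limma adjusted p = 0.062). With the library number as a block the adjusted p was 0.033. In WT it had 19353.9, 14912.8 and 14773.6, against 14140.2, 11284.5 and 13171.6 in M-CSF (log2 0.34, SE 0.11, adjusted p = 0.019). Erap1 rose by 0.23 in WT (SE 0.08, adjusted p = 0.032), with 4255.0 to 4798.3 in IL-4 against 3631.9 to 4086.8 in M-CSF, and was at -0.07 in p110g-/- (adjusted p = 0.5). The difference of the Erap1 response between genotypes was -0.30 (SE 0.12, adjusted p = 0.55). H2-K1 (log2 -0.15 in p110g-/- and -0.22 in WT), B2m (-0.15 in p110g-/- and -0.08 in WT) and Tapbp (0.03 in p110g-/- and 0.07 in WT) did not pass the test in either genotype. The WT calls of H2-D1, H2-T23 and Erap1 depend on single libraries and on the fit. In a fit of the compared groups alone, H2-D1 and H2-T23 were lost (limma adjusted p = 0.075 each). H2-D1 was lost without WT M-CSF library 1 (0.086) or 3 (0.067) or IL-4 library 2 (0.087) or 3 (0.11). H2-T23 was lost without M-CSF library 2 (0.095) or IL-4 library 1 (0.099). Erap1 was lost without M-CSF library 2 (0.1) or 3 (0.094) or IL-4 library 1 (0.12) or 2 (0.051), in edgeR (0.058) and with upper quartile scaling (0.1).

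Between genotypes, Nlrc5 was the gene of the 10 that differed. In M-CSF it had 1009.3, 674.3 and 811.4 in p110g-/- libraries, against 2061.8, 1247.6 and 1375.8 in WT libraries, without overlap. The level was lower in p110g-/- by a log2 difference of -0.89 (SE 0.19, 95% interval -1.30 to -0.49, a level of 0.539 of WT, limma adjusted p = 0.018). It was 1 of 10 genes called, where 2.34% of all tested genes were called. The call rests on few libraries. It was lost without WT library 1, the highest (log2 difference -0.67, adjusted p = 0.08), without p110g-/- library 2 (-0.75, 0.11) or library 3 (-0.88, 0.056), and in a fit of the M-CSF groups alone (adjusted p = 0.15). The range over its 15 alternatives was 4.2e-06 to 0.15. The lowest value came with the library number as a block, although same-numbered libraries of the genotypes were not taken as pairs in M-CSF.

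In IL-4, Nlrc5 had 641.4, 482.6 and 558.1 in p110g-/- libraries, against 1017.8, 797.1 and 832.7 in WT libraries, again without overlap. The log2 difference was -0.65 (SE 0.19, 95% interval -1.06 to -0.25) and missed the threshold (limma adjusted p = 0.083). Of the 10 genes 0 were called there, where 3.33% of all genes were. At an unadjusted p under 0.05 there was 1, edgeR called 0 and DESeq2 called 1, which was Nlrc5 (adjusted p = 0.03). In IFNg/LPS the genotypes overlapped, with 19824.8, 14266.0 and 16049.7 in p110g-/- and 22940.8, 17845.7 and 19131.3 in WT libraries (log2 difference -0.26, SE 0.19, 95% interval -0.67 to 0.14, adjusted p = 0.4). There 0 of the 10 genes were called by limma, edgeR or DESeq2, and 0 had an unadjusted p under 0.05, where 14.7% of all genes were called. Same-numbered libraries of the 2 genotypes deviate together in IFNg/LPS, and with the library number as a block the same Nlrc5 difference had an adjusted p of 0.021. Without the library labelled p110g-/- IFNg/LPS number 1 the difference was -0.39 (limma adjusted p = 0.22), and 0 of the 10 genes were called. Nlrc5 was highest in library 1 in 6 of the 6 groups.

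Averaged over the 3 stimuli, Nlrc5 was lower in p110g-/- by a log2 difference of -0.60 (SE 0.11, 95% interval -0.84 to -0.37, a level of 0.658 of WT, limma adjusted p = 0.0019). It was 1 of 10 genes called, where 11.8% of all tested genes were. The call held in all 27 alternatives (adjusted p 2.2e-07 to 0.0056), and without the library labelled p110g-/- IFNg/LPS number 1 the difference was -0.65 (adjusted p = 0.0013). For this mean, the fit of the compared groups alone uses all 6 groups and so repeats the main fit. The lowest adjusted p came with the library number as a block, although same-numbered libraries of the genotypes were not taken as pairs in M-CSF or IL-4. The mean per kb of exon was 102 in p110g-/- and 192 in WT libraries in M-CSF, 2058 in p110g-/- and 2460 in WT libraries in IFNg/LPS, and 69.1 in p110g-/- and 109 in WT libraries in IL-4. Some marker sums of other cells also differed between the genotypes. The mast cell and basophil markers summed to 124 to 271 in p110g-/- and 307 to 385 in WT libraries in M-CSF, and to 179 to 198 in p110g-/- and 391 to 715 in WT libraries in IL-4, in both without overlap and in the direction of Nlrc5. In IFNg/LPS they overlapped, at 83.4 to 233 in p110g-/- and 83.7 to 112 in WT libraries. The dendritic cell markers other than Ccr7 summed to 271.9 to 369.0 in p110g-/- and 209.5 to 228.5 in WT M-CSF libraries, without overlap, and to 208.4 to 258.2 in p110g-/- and 169.8 to 294.5 in WT IL-4 libraries. Neutrophil markers summed to 1045 to 1921 in p110g-/- and 2136 to 3282 in WT IFNg/LPS libraries, without overlap. None of the mast cell and basophil markers was at 0 throughout a group. The part of these cells in the Nlrc5 difference was not tested.

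**Figure D4:**
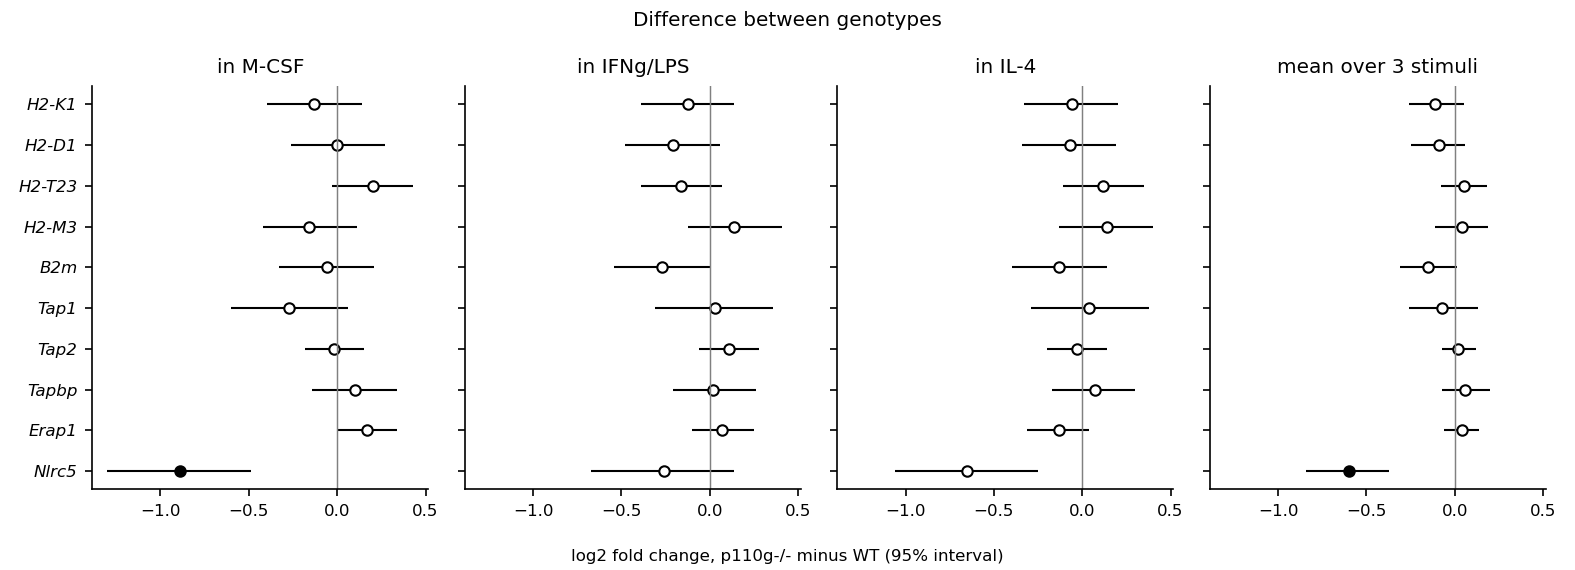
Log2 difference of p110g-/- minus WT for each of the 10 genes in M-CSF, IFNg/LPS, IL-4 and averaged over the 3 stimuli; bars are 95% intervals from limma, filled points passed an adjusted p of 0.05 and open points did not. Nlrc5 lies at -0.89, -0.26, -0.65 and -0.60, and the 9 other genes lie between -0.27 and 0.20.

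The 9 other genes were close between the genotypes. Their log2 differences were -0.27 (Tap1) to 0.20 (H2-T23) in M-CSF, -0.27 (B2m) to 0.14 (H2-M3) in IFNg/LPS and -0.13 (B2m) to 0.14 (H2-M3) in IL-4. Averaged over the stimuli they were -0.15 (B2m) to 0.06 (Tapbp), and the 95% intervals of these 9 averages spanned -0.31 to 0.20, so that a mean change of the size seen for Nlrc5 lay outside each. The smallest adjusted p was 0.19, for B2m in IFNg/LPS. Some groups did not overlap although the test was not passed. The share of all tested genes whose groups do not overlap was not counted, so these cases are a description only. In IFNg/LPS, B2m had 386776.0 to 440223.4 in p110g-/- and 478981.8 to 523549.4 in WT libraries (log2 difference -0.27, SE 0.13). H2-D1 had 232599.7 to 250598.1 in p110g-/- and 261762.1 to 286167.0 in WT IFNg/LPS libraries (-0.21, SE 0.13, adjusted p = 0.3). H2-T23 had 51769.3 to 55038.4 in p110g-/- and 58547.1 to 63284.5 in WT IFNg/LPS libraries (-0.16, SE 0.11, adjusted p = 0.34). In M-CSF, Erap1 had 4155.0 to 4406.0 in p110g-/- and 3631.9 to 4086.8 in WT libraries (0.17, SE 0.08, adjusted p = 0.4).

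Whether the stimulus responses differed between genotypes was tested directly. For IFNg/LPS, 0 of the 10 responses differed (2.44% of all tested genes did), with 2 at an unadjusted p under 0.05 and 0 by edgeR or DESeq2. These 2 were Nlrc5, whose response was larger in p110g-/- by 0.63 (SE 0.27, adjusted p = 0.24), and H2-T23, whose response was smaller by 0.36 (log2 -0.36, SE 0.15, adjusted p = 0.24). Without the library labelled p110g-/- IFNg/LPS number 1 the difference was 0.50 for Nlrc5 (adjusted p = 0.35) and 0 of the 10 were called. For IL-4, 0 of the 10 and 0% of all tested genes differed, with 1 member (Erap1) and 1156 genes at an unadjusted p under 0.05. EdgeR called 0 members and 0 genes there, and DESeq2 called 0 members and 77 genes. The responses to both stimuli share the M-CSF libraries.

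Within a library, ratios between members are free of the library's scaling. These ratios were chosen after the values had been seen, and 9 comparisons were tested by exact two-sided permutation within genotype or stimulus. Because of that choice the p-values are no independent support, and their adjustment covers these 9 comparisons only. The signal of H2-K1 over that of H2-D1 was 0.914 to 1.113 in 6 IFNg/LPS libraries, against 0.352 to 0.474 in 6 M-CSF libraries (mean log2 difference 1.29, exact permutation p = 0.005, the smallest possible, adjusted 0.015). In 6 of 6 libraries the balance of the classical heavy chains thus lay above every M-CSF library. In IL-4 the ratio was 0.444 to 0.505 (log2 difference 0.24, exact permutation p = 0.01, adjusted 0.018), which overlapped M-CSF. The signal of Tap1 over that of Tap2 was 1.591 to 1.806 in IFNg/LPS, against 0.959 to 1.562 in M-CSF (log2 difference 0.60, exact permutation p = 0.005, adjusted 0.015), and 0.963 to 1.193 in IL-4 (adjusted 0.4). B2m over the sum of H2-K1 and H2-D1 was 0.784 to 0.971 in IFNg/LPS and 0.835 to 0.950 in IL-4, against 0.709 to 0.846 in M-CSF (log2 differences 0.23 and 0.24, adjusted exact permutation p = 0.018 and 0.015). None of the 3 ratios passed between p110g-/- and WT (adjusted exact permutation p = 0.84, 0.37 and 0.29). Ratios of signals are not ratios of molecules, because the exon lengths differ.

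**Figure D5:**
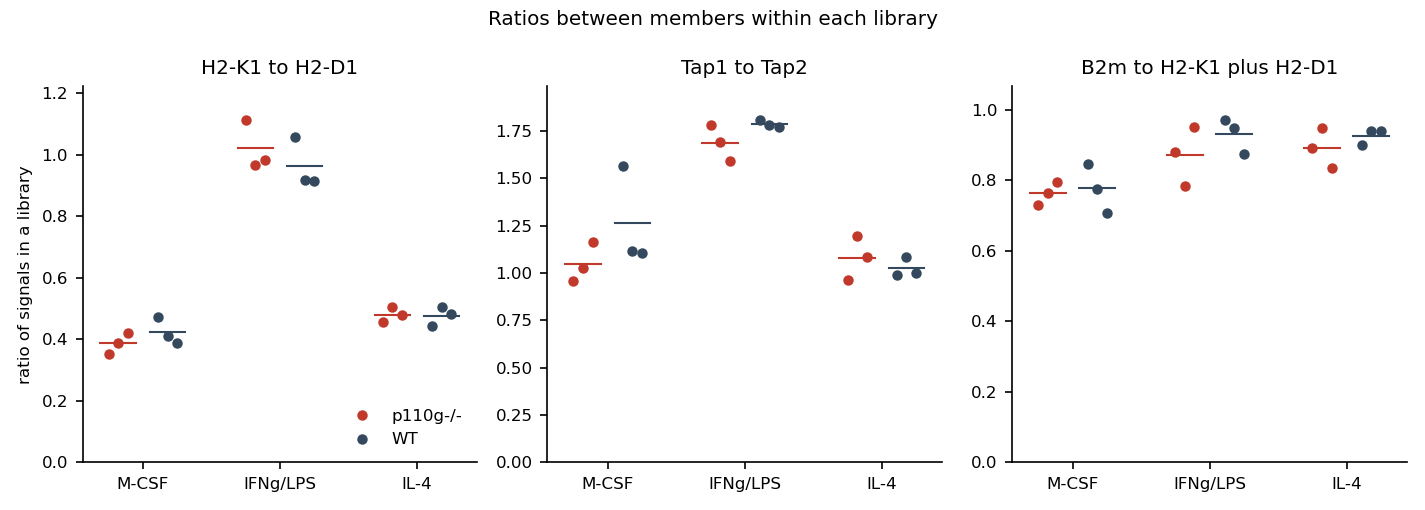
Ratio of 2 signals within each of the 18 libraries for H2-K1 to H2-D1, Tap1 to Tap2 and B2m to the sum of H2-K1 and H2-D1; points are libraries, bars are means of 3, and p110g-/- (red) stands left of WT (dark). The ratio of H2-K1 to H2-D1 is 0.914 to 1.113 in IFNg/LPS against 0.352 to 0.474 in M-CSF.

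The rest of the pathway was read from 8 lists, also chosen with earlier results of these data known. They held 82 genes, 78 of them tested. After IFNg/LPS, 56 rose and 9 fell in p110g-/-, where 36.2% of all tested genes rose and 36.8% fell, and 60 rose and 10 fell in WT, where 36.3% rose and 37.5% fell. All 18 tested of the 20 other class I heavy chains rose in both genotypes, with a median of 3.17 in p110g-/- and 3.29 in WT. Among them were H2-T9 (log2 3.96 in p110g-/- and 4.24 in WT) and H2-T22 (3.81 in p110g-/- and 4.11 in WT). Of these 20, 11 have a RefSeq window and 1, H2-Q7, held the X2 and Y pair. The share of their own sequence that occurs in other class I genes was not measured. Their signals may hold reads of relatives, so the 18 may not be separate observations. The immunoproteasome and its activator, which cut proteins into class I peptides, rose in 6 of 6 genes, with Psme2 at 2.75 in p110g-/- and 2.91 in WT, Psme1 at 2.19 in p110g-/- and 2.30 in WT and Psmb9 at 2.91 in p110g-/- and 2.83 in WT. The constitutive proteasome counterparts rose in 4 of 4, with medians of 1.06 in p110g-/- and 0.97 in WT against 2.21 in p110g-/- and 2.40 in WT for the immunoproteasome, such as Psmb5 at 1.45 in p110g-/- and 1.30 in WT. Of the loading complex and chaperones 4 rose and 3 fell of 9 in each genotype. Tapbpl, the peptide editor TAPBPR, rose by 3.69 in p110g-/- and 3.68 in WT, and Uggt1, which tags misfolded glycoproteins for another round of folding, fell by 1.20 in each. Of the class I transcription factors 12 rose and 1 fell of 16, with Irf1 at 4.23 in p110g-/- and 4.34 in WT. Of 10 peptidases 3 rose and 3 fell in p110g-/-, and 4 rose and 4 fell in WT, near the shares of all genes. Of 6 class I-like genes 3 rose and 2 fell in p110g-/-, and 4 rose and 2 fell in WT, with the protein C receptor Procr at 6.11 in p110g-/- and 5.78 in WT and the iron regulator Hfe at -3.12 in p110g-/- and -2.77 in WT. Of 9 genes for surface turnover and class I receptors 6 rose in p110g-/- and 8 in WT.

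With IL-4, 26 of the 78 rose and 18 fell in p110g-/- (22.7% and 21.2% of all tested genes), and 28 rose and 16 fell in WT (22.9% and 21.1%). Of the 9 loading complex and chaperone genes 8 rose and 1 fell in each genotype, among them Pdia3, the ERp57 subunit of the loading complex (log2 1.01 in p110g-/- and 0.91 in WT), Hspa5 (0.97 in p110g-/- and 0.92 in WT) and Hsp90b1 (1.27 in p110g-/- and 1.20 in WT). These chaperones also fold many proteins outside the class I pathway. Of the other heavy chains 1 rose and 8 fell of 18 in p110g-/-, and 1 rose and 6 fell in WT, with H2-Q4 at -0.57 in p110g-/- and -0.74 in WT. The constitutive proteasome counterparts rose in 4 of 4, and Psmb10 of the immunoproteasome rose by 1.04 in p110g-/- and 1.02 in WT. Of the transcription factors 4 rose and 3 fell of 16 in p110g-/-, and 3 rose and 5 fell in WT, near the shares of all genes, with Irf8 at -0.89 in p110g-/- and -0.91 in WT. Between genotypes 1 of the 78 was called in M-CSF (1.28%), 9 in IFNg/LPS (11.5%) and 3 in IL-4 (3.85%), near the shares of all genes. Rfxank, a subunit of the RFX complex that binds the X box of MHC promoters, was lower in p110g-/- in M-CSF (574 in p110g-/- against 761 in WT, log2 -0.41, limma adjusted p = 0.0054) and in IL-4 (587 in p110g-/- against 807 in WT, -0.46, adjusted p = 0.0019). Rfx5 of the same list went the other way. It was higher in p110g-/- in IFNg/LPS (1576 in p110g-/- against 1228 in WT, log2 0.36, limma adjusted p = 0.026). In IL-4 its difference was 0.24 and did not pass (limma adjusted p = 0.25). In IFNg/LPS, the largest differences were March1, a ubiquitin ligase of MHC class II, lower in p110g-/- (6053 in p110g-/- against 16580 in WT, -1.50, adjusted p = 9.1e-06), and the nonclassical heavy chain H2-M2, higher in p110g-/- (2443 in p110g-/- against 940 in WT, 1.42, adjusted p = 0.032). All p110g-/- IFNg/LPS values of the 78 genes include the library labelled p110g-/- IFNg/LPS number 1. For these genes, results without that library are not given.

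The tested genes most like the 10, by Pearson correlation over the 18 libraries with the mean of their standardised log2 values, were LOC101056305 (r = 0.999) and Parp10, Tapbpl, H2-Q5, Gm15821, LOC676708, Zc3hav1 and H2-Bl (r = 0.998 each). Gm15821 lies opposite Tap2. Whether LOC101056305, LOC676708, H2-Q5, H2-Bl and Gm15821 share reads with class I genes or Tap2 was not tested. The 45 pairs among the 10 correlated at 0.922 to 0.998 over the 18 libraries, which share the IFNg/LPS increase. After subtracting group means the correlation was 0.572 at the median, from -0.364 (H2-M3 and Erap1) to 0.921 (H2-D1 and H2-T23), and 30 of 45 pairs were above 0.5. These are descriptions, and the libraries' own scaling enters all of them.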

How the data were processed

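RNA sequencing of 18 libraries was read from 1 table. Per the submitters' processing notes, the authors used CASAVA 1.8.2, Bowtie2 and DESeq with mm9; how reads were counted is not given in the sources used here. The deposited values are a normalised signal: 99.99% to 100.00% of the values of each library are whole multiples, to within 0.1 units of signal, of 1 step per library, which is what gene counts scaled by a single factor for each library would give, and whole reads were recovered from it.

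Log2(value + 1) was fitted in limma 3.58.1 (R 4.3.3, trend and robust settings) by 6 group means over 18 libraries, leaving 12 residual degrees of freedom. Fold changes are on that scale. Testing covered 15627 genes, those reaching 10 in 3 or more libraries, with Benjamini-Hochberg adjustment over them in each of 10 comparisons (threshold 0.05). Alternatives included edgeR 4.0.16 and DESeq2 1.42.0 on recovered reads; the fits were tested on simulated data. Levels per kb use GENCODE M21 exon lengths, and promoters come from RefSeq; neither is the authors' build, so no coordinate of theirs is used. Python 3.11.15 was used for ratios and figures.

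The members, gene lists and motifs were chosen with earlier results of these data known. All 10 members are named; of the other pathway genes, up to 3 per list and comparison with the smallest p could be named. Same-numbered libraries were taken as pairs where each of the 3 correlations of their deviations exceeded 0.1. This held for the genotypes in IFNg/LPS (0.546, 0.340 and 0.256), for IFNg/LPS against M-CSF in WT, and for IL-4 against M-CSF in p110g-/- and in WT. It did not hold for the genotypes in M-CSF (lowest 0.055) or IL-4 (0.053), or for IFNg/LPS against M-CSF in p110g-/- (0.028).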

Additional observations from a re-analysis of the deposited data

How the results depend on the processing

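All 20 IFNg/LPS responses kept their direction and their call in every alternative run, as did the mean genotype difference of Nlrc5. Of 714 values of single genes under alternatives, 675 kept direction and call, 23 lost the call, 11 gained it and 5 changed sign, none of them called. The sign changes came from leaving out a library: the IL-4 response in WT ranged from -0.19 to 0.08 for B2m and from -0.08 to 0.16 for Tapbp, and that of Tapbp in p110g-/- from -0.02 to 0.08. The count of members called between genotypes in M-CSF, 1, became 0 in a fit of those groups alone and 0 to 1 with a library left out. In IFNg/LPS the count of 0 became 1 with the replicate block and 1 with libraries 2 and 3 only. In IL-4 it became 1 in DESeq2, 1 with the replicate block and 1 with libraries 2 and 3 only, the gene being Nlrc5 each time. The 4 members called for IL-4 in p110g-/- became 2 to 4 with a library left out. The count of 0 for the IFNg/LPS interaction became 1 with the replicate block (Nlrc5, adjusted p = 0.0036) and 2 with libraries 2 and 3 only. The ratios' log2 differences stayed within 0.56 to 0.69 (Tap1 to Tap2) and 1.26 to 1.33 (H2-K1 to H2-D1) for IFNg/LPS when a library was left out. The cause of the changed counts was not tested. Beside these and H2-T23 in IL-4, the block changed no other call of the values reported. Upper quartile scaling moved the median of all genes by -0.13 in p110g-/- and -0.14 in WT for IFNg/LPS and changed no IFNg/LPS call. Counts over all genes depended more on the setting: 365 genes differed between genotypes in M-CSF by limma and 673 by DESeq2, 520 and 921 in IL-4, and 381 and 892 in the IFNg/LPS interaction, while in IFNg/LPS 2303 became 708 in a fit of those groups alone. With libraries 2 and 3 only, the counts were 688 in M-CSF, 4166 in IFNg/LPS, 2285 in IL-4 and 1708 in the IFNg/LPS interaction. With 1 library left out, they were 239 to 336 in M-CSF (lowest without p110g-/- library 2), 1466 to 2728 in IFNg/LPS (lowest without p110g-/- library 2), 239 to 727 in IL-4 (lowest without WT library 3) and 183 to 633 in that interaction. The IL-4 interaction, with 0 genes, had 385 with libraries 2 and 3 only and 0 to 89 with a library left out. With 3 libraries a group, small differences such as those of B2m are not resolved.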
